A study of Mus musculus with 12 samples.

Results

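Cluster 19 held 3066 of the 93126 cells of this single-cell RNA-seq series, and 3066 of the 68059 cells of its 10 monocyte/macrophage clusters. Its members were taken by the cluster number that the authors deposited for each cell, and they were described against the 64993 cells of the other 9 macrophage clusters (2, 4, 5, 9, 15, 17, 21, 26 and 27). Because the cells were clustered on their expression, gene levels that set cluster 19 apart from the other clusters are given as a description without a test. Tests were kept for the share of cluster 19 per tumor and for gene levels inside cluster 19 between tumors.

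The tumors were MC38, a mouse colon carcinoma line, grown under the skin of female mice aged 8 to 12 weeks. Hosts were C57BL/6J (B6) or F1 crosses of C57BL/6J with the Collaborative Cross strains CC001/UncJ, CC002/UncJ, CC075/UncJ, CC036/UncJ, CC079/TauUncJ, CC080/TauUncJ or CC007/UncJ, each called here by its CC number, so that every F1 host carried a B6 genome copy. At 75 to 110 mm3 each mouse received a single intraperitoneal dose of 200 µg of isotype control (2A3) or anti-PD-1 antibody (29F.1A12, aPD1), and tumors were taken 48 hours later, frozen in DMSO and sorted to 90% CD45+ and 10% CD45- cells. The study classed CC001, CC002 and CC075 as responder strains and CC036, CC079 and CC080 as non-responder strains, whereas B6 and CC007 had no class here. Each of 12 pools was a single 10x 5′ library of 4 hashtagged specimens, which gave 24 isotype and 24 aPD1 tumors, and isotype and aPD1 specimens never shared a hashtag, so hashtag and treatment cannot be told apart. The same animal identifier stood on a CC080 specimen of pool 3 (isotype) and on another of pool 4 (aPD1).

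A droplet library samples whatever RNA a captured particle releases. Spliced mRNA of ribosomal protein genes is short and sits in the cytoplasm, transcripts of the mitochondrial genome sit inside mitochondria, and Malat1, Neat1 and Xist are long noncoding RNAs that stay in the nucleus. Long mammalian genes are mostly intron, and introns are present in unspliced RNA. Tumor macrophages take up debris, present antigen on MHC class II and release chemokines.

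Tumors held 53 to 3082 cells and 88816 to 17713491 UMIs (unique molecular identifiers, 1 per captured RNA molecule). Cluster 19 was found in every tumor, and 47 of 48 tumors had at least 10 of its cells, the minimum for a value per tumor. The CC007 aPD1 tumor of pool 6 was left out with 3 cluster 19 cells among 30 macrophage cells (10.0%, exact 95% confidence interval 2.11 to 26.5%). Intervals of this kind cover counting error only. In the other 47 tumors cluster 19 counted 11 to 136 cells, with a median of 61, and 14822 to 242216 UMIs.

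Doublets and stray RNA were looked at first. A doublet score with its threshold set at the highest 4% of each pool called 3.33 to 3.93% of the cells of a pool. It called 1.76% of cluster 19 and 3.61% of the other macrophages. Cells with UMIs of at least 2 markers of another cell type made up 1.34% of cluster 19 and 2.49% of the other macrophages at unequal depth (medians of 1225 and 3624 UMIs). The summed level of 10 T cell markers was 37.7 CPM (UMIs of a gene scaled to a total of 1000000) in cluster 19, 8.31 CPM in the other macrophages and 5957 CPM in T cell cluster 3, and all 10 were higher in cluster 19 than in the other macrophages. Granulocyte markers summed to 51.8 against 55.6 CPM, with 66158 CPM in cluster 16, and G0s2 and Ly6g had 0 UMIs in cluster 19. Fibroblast markers reached 15.8 against 6.05 CPM (11944 CPM in cluster 22) and MC38 or epithelial markers 10.9 against 3.69 CPM. Hence each of these lists stood far under its level in its own cluster. The migratory dendritic cell list was at 8.82 against 6.22 CPM (6851 CPM in cluster 11), while other dendritic cell lists had higher levels. The cDC1 list was at 569 against 285 CPM (2152 CPM in cluster 6), of which Cadm1, an adhesion molecule whose gene spans 327 kb, gave 432 against 93.5 CPM. The cDC2 list was at 449 against 390 CPM and the plasmacytoid list at 647 against 623 CPM. Endothelial markers reached 68.5 against 31.5 CPM with Cldn5 and Emcn at 0 UMIs, and platelet markers 155 against 612 CPM. The part of stray RNA in the results below was not tested beyond these values. In cells thinned to 1000 UMIs, at least 1 T cell marker was seen in 1.64% of 1951 cluster 19 cells and 0.788% of 61829 other macrophages, while 1115 and 3164 cells were too shallow to enter. At least 2 T cell markers were seen in 0.256% of the thinned cluster 19 cells and 0.0404% of the thinned other macrophages, and at least 2 granulocyte markers in 0% and 0.173%. A barcode sequence that also occurred in another library was carried by 10.3% of cluster 19 cells and 10.9% of all cells, and 5 barcode sequences were cluster 19 in more than 1 library.

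Macrophage identity was checked with 10 markers. Lyz2, the lysozyme of myeloid cells, stood at 2105 CPM in cluster 19, 6163 CPM in the other macrophages and at most 121 CPM in a T/NK cluster. Csf1r, the receptor for the macrophage growth factor CSF1, was at 311 against 414 CPM and at most 6.20 CPM in T/NK clusters. Adgre1, which encodes the F4/80 antigen, was at 358 against 148 CPM, the highest level among all 27 clusters. Levels in cluster 19 followed gene span (below), and the part of span in the Adgre1 level was not tested. Per tumor, Adgre1 ran from 56.8 through a median of 354 to 668 CPM in cluster 19 and from 84.4 through 147 to 202 CPM in the other macrophages, and it was higher in cluster 19 in 45 of 47 tumors. Itgam (CD11b) was at 402 against 374 CPM, and the other 8 markers were lower, such as C1qa, a complement subunit, at 701 against 1860 CPM and Cd68 at 178 against 425 CPM. The share of cells with a Lyz2 UMI was 53% in cluster 19 (median 1225 UMIs), 95.7% in the other macrophages (3624 UMIs) and 12.96% in T/NK cells (1874 UMIs). All 10 macrophage markers were thus well above T/NK cells, but none was among the 10 genes with the largest fold over all other cells, which were led by Mir99ahg, Gm4258, Lonrf3 and Psd3. The median UMI count of cluster 19 was 0.294 to 0.543 of that of its own pool. It is therefore called cluster 19 below and given no cell type name.

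What set cluster 19 apart was the make-up of its RNA. A typical cell had few molecules, very few from ribosomal protein genes, and many from the mitochondrial genome, from Malat1 and from genes that span 100 kb or more. The median cell held 1225 UMIs and 775 genes, against 3624 UMIs and 1551 genes in the other macrophages. Over 47 tumors, the median ribosomal share of a cluster 19 cell ran from 1.23% through 2.84% to 6.60%, whereas that of the other macrophages ran from 13.6% through 16.7% to 19.9%, and the ranges did not overlap. The mitochondrial share was 2.73%, 4.50% and 8.86% at the lowest, median and highest tumor in cluster 19, above 0.713%, 1.24% and 2.01% in the other macrophages, again without overlap. The Malat1 share had a median of 1.85% (0.740 to 3.03%) against 0.436% (0.298 to 0.862%), with the lowest cluster 19 tumor inside the range of the other macrophages. The share from genes of at least 100 kb was 30.4% (21.9 to 36.4%) against 7.69% (6.28 to 10.4%). Every one of these differences had the same direction in all 47 tumors.

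**Figure D1:**
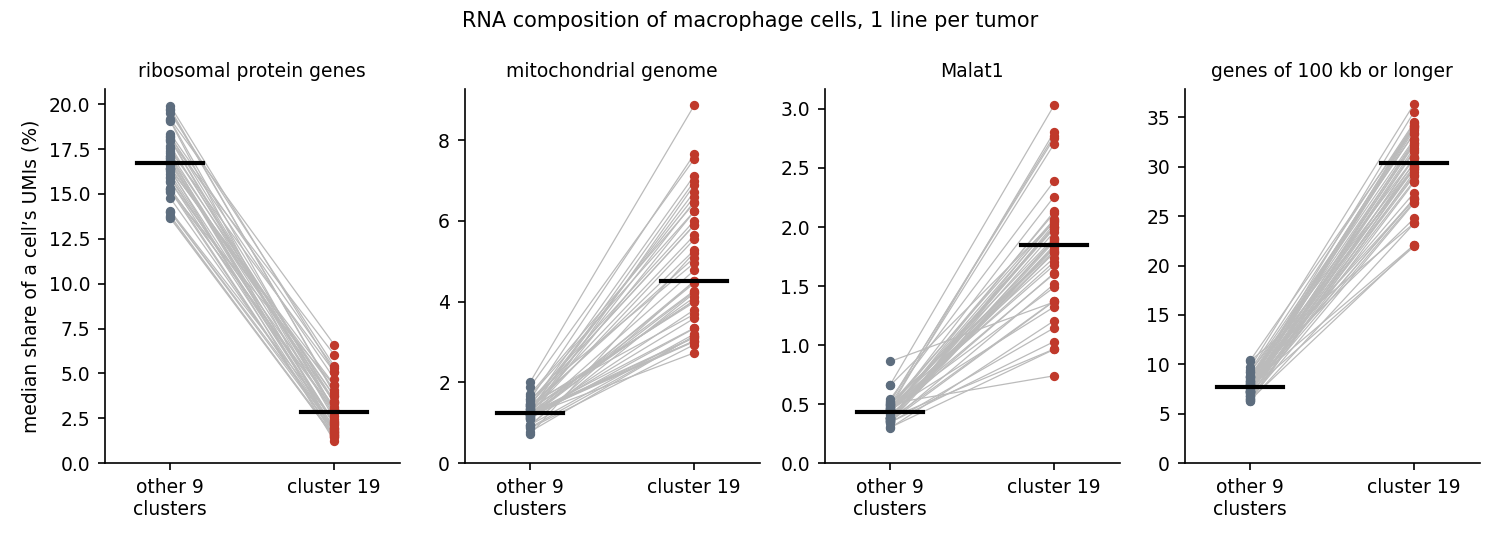
Median share of a cell's UMIs from ribosomal protein genes, the mitochondrial genome, Malat1 and genes of 100 kb or longer (y axes, %), in the other 9 macrophage clusters and in cluster 19; each point and line is 1 of 47 tumors and the bar is the median of tumors. At the median tumor the ribosomal share was 16.7% in the other clusters and 2.84% in cluster 19, and the long-gene share 7.69% and 30.4%.

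The same make-up was seen at matched depth. Among cells of 1000 to 1500 UMIs, 779 cluster 19 cells had medians of 3.02% ribosomal, 5.20% mitochondrial and 30.8% long-gene UMIs, whereas 4995 other macrophages of the same depth had 13.1%, 1.68% and 10.7%. When each cell was thinned to 1000 UMIs, cluster 19 cells showed a median of 672 genes and the other macrophages 619. Among the 27 clusters of the series, cluster 19 had the lowest median ribosomal share and the highest long-gene and mitochondrial shares; the next lowest ribosomal share was 3.58% in granulocyte cluster 16, where the mitochondrial share was 0.138%. Ribosomal shares under 5% were found in 65.9% of cluster 19 cells and 2.31% of the other macrophages, and cluster 19 held 57.3% of the 3523 macrophage cells under that share. Mitochondrial shares of 10% or more were found in 18.3% of cluster 19 cells and 0.242% of the other macrophages. The authors had removed cells over 15% mitochondrial UMIs, and the highest value left in cluster 19 was 14.99%.

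Genes followed their genomic length. Of 4318 genes with at least 50 CPM in cluster 19 or in the other macrophages, 31.1% were more than 2-fold higher (1343 genes) and 20.1% more than 2-fold lower (868 genes) in cluster 19, on the scale of log2(CPM + 10) averaged over 47 tumors. By any amount 59.2% were higher (2555 genes) and 40.8% lower (1763 genes). For the 4200 of them with a gene span in GENCODE (build GRCm38), ribosomal protein and mitochondrial genes left out, the median log2 ratio was -1.07 for 393 genes under 5 kb, -0.50 for 574 genes of 10 to 20 kb, 0.42 for 1018 genes of 20 to 50 kb and 1.84 for 316 genes over 200 kb. Of the genes over 200 kb, 99.1% were higher in cluster 19, against 4.07% of those under 5 kb. The rank correlation over genes of the ratio with span was 0.84 and that with exonic length 0.69; genes are not independent replicates and these are descriptions. Span and exonic length are linked. Within 4 ranges of exonic length (1 to 2, 2 to 3, 3 to 5 and 5 to 10 kb) the correlation with span was 0.40, 0.55, 0.72 and 0.75, and within 4 ranges of span (10 to 20, 20 to 50, 50 to 100 and 100 to 200 kb) that with exonic length was 0.43, 0.37, 0.25 and 0.19. In cells of 1000 to 1500 UMIs the rank correlation with span was 0.82 for cluster 19 against the other macrophages. Shallow cells of the other clusters leaned the same way to a lesser degree: other macrophages of 1000 to 1500 UMIs against all other macrophages gave medians of -0.27 under 5 kb and 0.63 over 200 kb. For each of the other 9 clusters against the remaining macrophages the rank correlation lay between -0.18 (cluster 2) and 0.34 (cluster 9). Whether reads in introns were counted is not given in the sources used here.

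**Figure D2:**
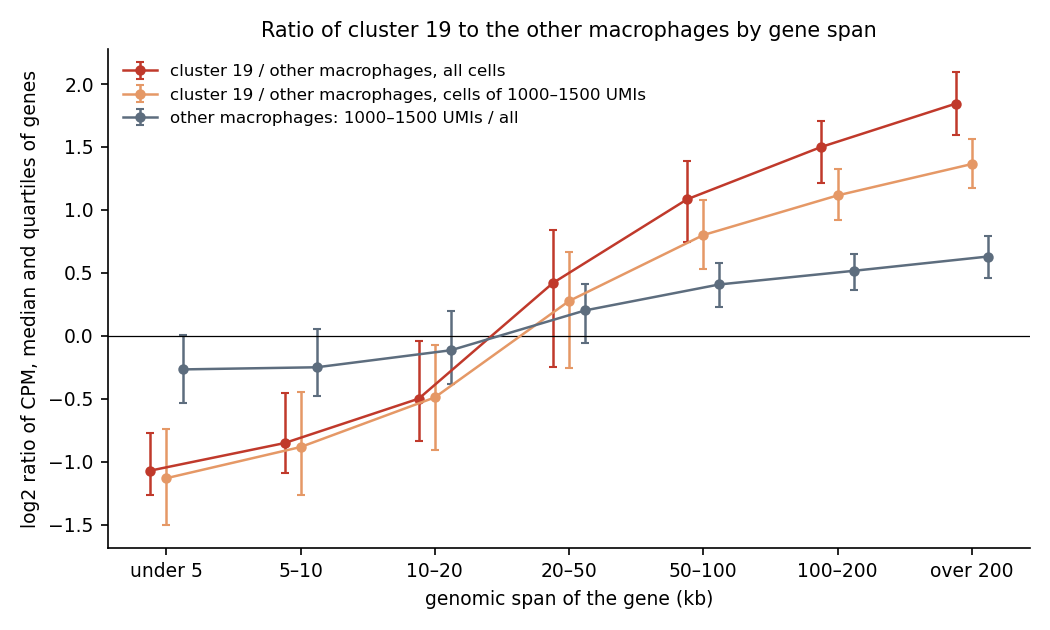
Log2 ratio of CPM by genomic span of the gene (kb, 7 bins); points are medians and bars the quartiles over genes. For cluster 19 against the other macrophages the median went from -1.07 under 5 kb to 1.84 over 200 kb, in cells of 1000 to 1500 UMIs from -1.13 to 1.36, and for shallow cells of the other macrophages from -0.27 to 0.63.

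The 25 leading higher genes, chosen by the size of their ratio with unnamed, ribosomal and mitochondrial genes left out, all spanned more than 125 kb. They were Dock2, Lrmda, Trps1, Slc8a1, Plcl1, Maml3, Plcb1, Dyrk1a, Zswim6, Arhgap15, Atrnl1, Psd3, Mir99ahg, Dennd1a, Slc9a9, Diaph2, Smyd3, Zcchc7, Dock4, Dip2c, Maml2, Mpp7, Elmo1, Zbtb20 and Vav3, and 22 of them were higher in cluster 19 in all 47 tumors. The first was Dock2, an activator of the small GTPase Rac in blood cells (chromosome 11, 34226815 to 34783892, minus strand, 557 kb with 11.4 kb of exon). Dock2 ran from 1065 through 2975 to 5905 CPM over tumors in cluster 19 and from 307 through 476 to 753 CPM in the other macrophages, a mean log2 ratio of 2.61 ± 0.41 (SD, n = 47). The tumor ranges did not overlap. Elmo1, a partner of DOCK proteins, had 1310 against 258 CPM. Trps1, a GATA-type repressor, stood at 2442 against 422 CPM, Maml3, a Notch coactivator, at 832 against 143 CPM, and the sodium-calcium exchanger Slc8a1 at 1858 against 325 CPM. Lrmda, the second in rank, spans 1036 kb (chromosome 14, 22019712 to 23056085, plus strand) with 2.71 kb of exon and stood at 2105 against 347 CPM. The least of the 25, Vav3, still had a log2 ratio of 2.26 ± 0.42 (SD, n = 47).

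The 15 leading lower genes were short, at 0.949 to 18.5 kb. They were Ly6c2, Ly6i, Ifitm3, Pf4, Ccl6, Tyrobp, Ifi27l2a, Gpx1, Prdx5, Plac8, Wfdc17, Isg15, Ifitm2, Ccl12 and Selenop. Tyrobp encodes the adaptor DAP12 of myeloid receptors (chromosome 7, 30413760 to 30417585, plus strand, 3.83 kb). Tyrobp ran from 202 through 647 to 1771 CPM in cluster 19 and from 2071 through 2883 to 3527 CPM in the other macrophages, a log2 ratio of -2.10 ± 0.67 (SD, n = 47) with no overlap. Ly6c2, a surface protein of inflammatory monocytes, had the lowest ratio at -2.64 ± 1.26 (SD, n = 47), with 0 UMIs in the lowest cluster 19 tumor, 56.4 CPM in the median tumor and 675 CPM in the highest, against 81.3, 441 and 1513 CPM. The Ly6c2 ranges overlapped between tumors, but in each tumor cluster 19 was the lower. Ifitm3, Ifitm2, Isg15 and Ifi27l2a are interferon-induced genes, and Ifitm3 had 514 against 2084 CPM. Members of the Ly6 and Ifitm families are alike in sequence, so how their reads were split between them is uncertain. Gpx1 and Prdx5 encode peroxidases, and Gpx1 had 476 against 1459 CPM. Ribosomal protein genes were lower in 81 of 85 cases, with a median log2 ratio of -1.48, and all 12 measured mitochondrial genes were higher, with a median of 1.497.

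Some genes stood apart from others of their length. Higher than genes of like span were Malat1 (6.98 kb) at 18394 against 5029 CPM and Neat1 (20.8 kb) at 1442 against 342 CPM, both higher in all 47 tumors. Xist, which coats the inactive X chromosome in female cells, stood at 1589 against 489 CPM, and Tug1, another long noncoding RNA, at 58.6 against 24.3 CPM. Short protein-coding genes in that group were Wsb1 (379 against 112 CPM), Ccnl1, a cyclin tied to splicing (457 against 186 CPM), and Zfand5 (588 against 204 CPM). Lower than genes of like span were Bri3 (126 against 307 CPM) and Hmgb1, a chromatin protein (369 against 510 CPM). Cx3cr1, the fractalkine receptor, stood at 217 against 296 CPM with an annotated span of 168 kb. Spans run between the outermost annotated ends of a gene, so a single long transcript can set them. Which transcripts these cells used was not tested.

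The macrophage gene groups of this paragraph are given with their median spans. For comparison, the median log2 ratio was -0.85 for the 425 genes of 5 to 10 kb and -0.50 for the 574 genes of 10 to 20 kb. All 7 expressed MHC class II genes were more than 2-fold lower by the mean ratio over tumors (median log2 ratio -1.32, median span 10.8 kb). In counts pooled over tumors, as for each pair of levels here, Cd74, the invariant chain, was at 5066 against 9978 CPM and H2-Aa at 1919 against 4048 CPM. In contrast, Ciita, the gene of the MHC class II transactivator (48.4 kb), stood at 153 against 62.3 CPM and was higher in 43 of 47 tumors. In the Fc gamma receptor group 5 of 6 were lower (median -1.28, 12.4 kb), among them the shared chain Fcer1g at 1251 against 3663 CPM, whereas the kinase Syk (65.6 kb) was higher at 323 against 121 CPM in all 47 tumors. Iron and haem genes were lower in 6 of 6 cases (median -1.35, 8.92 kb), led by the ferritin subunit Fth1 at 3638 against 10938 CPM. Of 11 expressed lipid-associated macrophage genes 10 were lower (median -1.53, 12.1 kb, and -0.79 in cells of 1000 to 1500 UMIs). Apoe stood at 1390 against 4319 CPM, Spp1 at 536 against 1263 CPM and Trem2 at 95.7 against 296 CPM. The interferon-gamma response list held 14 lower and 4 higher genes (median -0.90, 9.69 kb). Cxcl9 stood at 316 against 908 CPM and Cd274, which encodes PD-L1 (20.6 kb), at 265 against 159 CPM.

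Other groups had a median above 0 or were split. Checkpoint ligands and brakes were higher in 8 of 11 cases (median 0.57, 25.8 kb), with the costimulator Cd86 at 1146 against 289 CPM in all 47 tumors and Havcr2 (TIM-3) at 239 against 120 CPM, while Vsir and Lgals9 were lower. Cholesterol genes were higher in 7 of 7 cases (median 0.55), and the efflux pump Abca1 (129 kb) had the largest ratio, at 490 against 131 CPM. In the NF-kappaB feedback list 6 were higher and 6 lower: Nfkb1 (107 kb) had 477 against 162 CPM and Nfkbiz 429 against 182 CPM, whereas Nfkbia (3.24 kb) had 151 against 257 CPM. Of 17 expressed growth factor receptor and macrophage transcription factor genes 7 were higher and 10 lower (median -0.04). Mitf (214 kb) was at 562 against 126 CPM and Zeb2 (134 kb) at 3672 against 890 CPM, each higher in all 47 tumors, and Tgfbr1 was at 716 against 202 CPM. In contrast, Cebpb (1.504 kb) was at 408 against 1041 CPM and lower in all 47 tumors. Mrc1 (CD206, 103 kb) had 569 against 224 CPM and was higher in 46 of 47 tumors, and of the 7 expressed genes of its resident-like list 3 were higher and 4 lower, with Pf4 and Selenop among the leading lower genes. Counts of genes higher or lower by any amount are to be read against 59.2% and 40.8% of all expressed genes, counts past 2-fold against 31.1% and 20.1%, and the part of gene length in them was not tested.

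Cluster 19 was not uniform. When its cells were ordered by ribosomal share, 1104 cells under 2% had medians of 36.8% long-gene, 2.51% Malat1 and 2.86% mitochondrial UMIs. The 580 cells at 5 to 10% ribosomal UMIs had 19.8% long-gene and 9.25% mitochondrial UMIs, the highest mitochondrial median of any range. Cells at 10% or more had 9.75% long-gene and 6.21% mitochondrial UMIs. Among the other macrophages, the 199 cells under 2% ribosomal UMIs had medians of 28.0% long-gene and 3.69% mitochondrial UMIs, nearer to cluster 19 than to their own clusters.

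A set of 74 cells with at least 5000 UMIs differed from the rest. They had medians of 15416.5 UMIs, 19.2% ribosomal, 1.13% mitochondrial, 0.235% Malat1 and 5.04% long-gene UMIs. They made up 2.41% of cluster 19 cells and 20.03% of its UMIs, lay in 31 tumors, and 17.6% of them were doublet-called (13 cells). The B6 aPD1 tumor of pool 7 had the most, 10 of its 37 cluster 19 cells. S phase genes summed to 1557 CPM in them and to 904 CPM in other macrophages of 10000 to 25000 UMIs, with 15 of 16 higher, such as Rrm2, a ribonucleotide reductase subunit, at 177 against 55.3 CPM. G2 and M phase genes summed to 1707 against 1188 CPM, with 12 of 16 higher. Of 7849 genes with a mean of at least 10 CPM over these groups, all 32 listed genes among them, 54.8% were higher in the 74 cells. Without the 74 cells the MHC class II sum of cluster 19 fell from 11663 to 6525 CPM, against 23453 CPM in the other macrophages. The iron and haem sum fell from 5921 to 3535 CPM, against 17188 CPM, and Fth1 from 3638 to 1968 CPM. The doublet-called share of cluster 19 cells under 5000 UMIs was 1.37%. The leading genes kept their direction without these cells: 23 of the 25 higher and 7 of the 15 lower genes stayed in the same top lists, with medians of 2.56 and -2.52 against 2.33 and -2.04 with all cells.

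**Figure D3:**
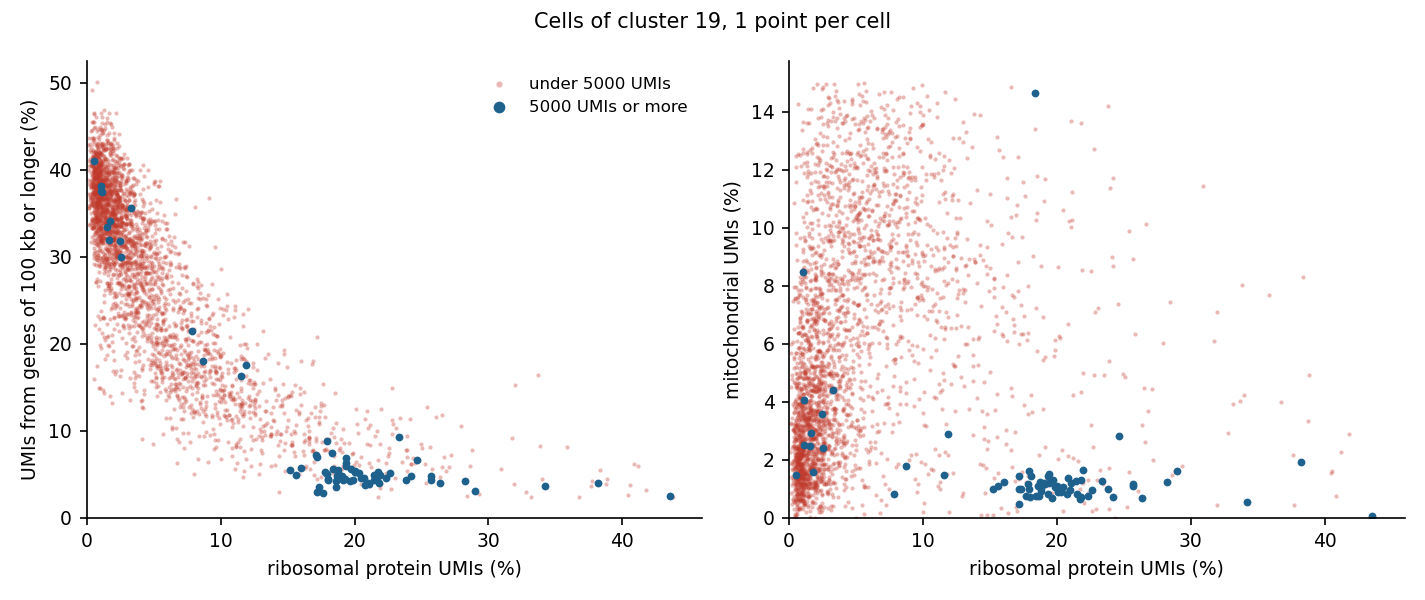
Cells of cluster 19 (1 point per cell) by the share of UMIs from ribosomal protein genes (x, %) against the share from genes of 100 kb or longer (left, y, %) and from the mitochondrial genome (right, y, %). Cells of 5000 UMIs or more (blue) had a median ribosomal share of 19.2% and lie mostly apart from the dense group of low ribosomal and high long-gene share.

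Over expressed genes, the profile of cluster 19 was closest to clusters 5 and 26 (Pearson r of log CPM 0.963 and 0.962) and farthest from cluster 15 (0.926); these are correlations across genes within 1 data set. Against cluster 5 the largest excess, chosen by ratio, was in Mpp7, Nr4a3 and Mir99ahg, and Nr4a3, a stress-responsive nuclear receptor of 41.3 kb, stood at 231 against 7.61 CPM. Against cluster 26 it was in Plcb1, at 517 against 9.84 CPM, and Nrg1, at 196 against 8.12 CPM. The genes with the largest deficit against cluster 26 were Ccl12, Cxcl13 and Selenop, with C1qa at 701 against 3237 CPM. When cells thinned to 1000 UMIs were assigned to the nearest of the other 9 clusters after the common ratio of cluster 19 was taken out, 23.9% went to cluster 26, 17.02% to cluster 4, 15.9% to cluster 2, 15.5% to cluster 5 and 10.1% to cluster 17, so no single cluster took most of them. The same step put 21.5% of the other macrophage cells in cluster 26, 12.2% in cluster 4, 23.5% in cluster 2, 17.002% in cluster 5 and 7.03% in cluster 17. Of these other macrophage cells 71.3% returned to their own cluster, from 65.8% for cluster 2 to 94.3% for cluster 17. Without that correction 34.2% went to cluster 4 and 7.18% to cluster 26, and the assignment rests on that step. Pools differed in this make-up too: the median ribosomal share of cluster 19 was 3.74% over the 20 tumors of pools 1 to 5 and 1.88% over the 20 tumors of pools 8 to 12, with mitochondrial medians of 6.12% and 4.12%.

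The share of cluster 19 among macrophage cells was compared between response classes and treatments. It ran from 1.86% (25 of 1342 cells, exact 95% confidence interval 1.21 to 2.74%) in the B6 isotype tumor of pool 8 to 8.80% (11 of 125 cells, 4.48 to 15.2%) in the CC002 isotype tumor of pool 12, with a median of 4.38% over 47 tumors. In isotype tumors it was 5.03% ± 1.58 (SD, n = 10) in responder strains and 5.30% ± 2.21 (SD, n = 9) in non-responder strains, or -0.274 percentage points apart (exact two-sided permutation test, p = 0.756, adjusted p = 0.866 over 6 comparisons). In aPD1 tumors it was 4.34% ± 0.99 (SD, n = 10) and 5.15% ± 1.68 (SD, n = 9), a difference of -0.808 points (exact permutation p = 0.213, adjusted p = 0.818). After aPD1 the mean was lower by 0.690 points in responder strains (exact permutation p = 0.273) and by 0.156 points in non-responder strains (exact permutation p = 0.866). The change per pair of tumors differed by -0.534 points between classes (exact permutation p = 0.548), and over all hosts aPD1 differed from isotype by -0.291 points (permutation p = 0.554). None of the 6 differences exceeded the spread between tumors. Leaving out the CC002 isotype tumor of pool 12 moved the responder difference from -0.690 to -0.271 points (exact permutation p = 0.543).

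The share differed between host strains. The strain comparison was added after the data had been seen. The mean was 2.95% in CC007 (n = 3), 3.50% in CC080 (n = 6), 4.12% in B6 (n = 6), 4.44% in CC002 (n = 6), 4.51% in CC075 (n = 6), 5.00% in CC001 (n = 8), 5.33% in CC079 (n = 6) and 6.85% in CC036 (n = 6). The difference over the 8 strains passed a permutation test (F = 3.78, p = 0.00377, strain labels permuted over 47 tumors), and it did so with shares permuted within pools as blocks (F = 2.62, permutation p = 0.0388). CC036 tumors ran from 3.92% through 7.17% to 8.36% and CC080 tumors from 2.47% through 3.09% to 6.02%, so the strains with the highest and second lowest mean were both non-responder strains. In pool 9 the CC036 tumors had 7.99% (isotype) and 7.02% (aPD1) and the CC075 tumors of the same library 4.38% and 4.40%; in pool 10 the values were 3.92% and 7.33% against 3.92% and 5.20%. Without CC036 the strain difference no longer passed (F = 1.77, permutation p = 0.132), and in pools 1 to 5 alone, which hold no CC036 tumor, it was F = 3.07 (permutation p = 0.0616). Neighbours in this order overlapped in range, and the 3 CC007 tumors with at least 50 macrophage cells (2.80 to 3.10%) lay below every tumor of CC075, CC001, CC079 and CC036 (lowest 3.54%). The fourth CC007 tumor, at 10.0% of 30 macrophage cells, is not in this range, mean or order. The number of cells recovered moved with the share: over 47 tumors the Pearson correlation was -0.48 and the Spearman correlation -0.37, given as a description because tumors shared libraries; its part in the strain difference was not tested.

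**Figure D4:**
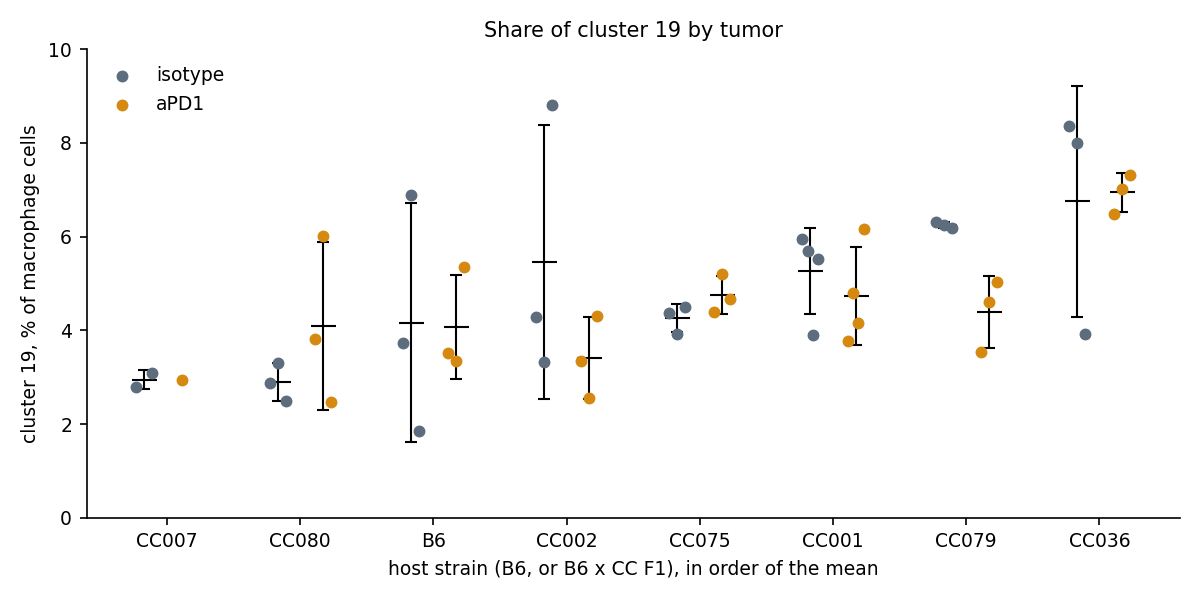
Share of cluster 19 among macrophage cells (y, %) by host strain in order of the mean; each point is 1 of 47 tumors (isotype grey, aPD1 orange) and bars are the mean ± SD where there are at least 2 tumors. CC036 is highest at a mean of 6.85% and CC007 lowest at 2.95%, and isotype and aPD1 tumors overlap in most strains.

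Within cluster 19, genes were compared between the 20 tumors of responder and the 18 of non-responder strains on UMIs summed per tumor. Of 2819 genes tested, 5 were higher in responder strains and 4 lower, or 9 in all (0.319%, edgeR quasi-likelihood test with Benjamini-Hochberg adjustment). The median cluster 19 cell of these tumors had 2.94% ribosomal UMIs in non-responder aPD1, 2.95% in non-responder isotype, 2.23% in responder aPD1 and 3.26% in responder isotype tumors (median tumor of each), and the part of this make-up in the gene differences was not tested. With pool as a block the count was 17 of 4461, since the expression filter then kept more genes, and 7 of the 9 were among them. On the same 2819 genes the block gave 10 calls. The largest difference was in Gm10260, which GENCODE tags as a retrogene without introns (chromosome 13, 97760072 to 97760632, minus strand), so reads of its parent copy could be split between them. In non-responder tumors it ran from 45.4 through 204 to 459 CPM and in responder tumors from 0 through 0 to 62.8 CPM, where 15 of 20 tumors had none, a log2 fold change of -4.53 ± 0.43 (SE, adjusted p = 4.3e-10). Gm10260 did not pass the expression filter in cluster 19 cells under 5000 UMIs and was not tested there. The groups did not overlap except that 1 responder tumor lay above the lowest non-responder tumor. Gm10260 went by strain: CC007 tumors had 299.8 to 390 CPM and B6 tumors 0 to 42.2 CPM. In the tumors of B6, CC001, CC002 and CC075 that shared a library with a strain of high level, it stood at 11.25 CPM in cluster 19 (25 UMIs) and 6.11 CPM in the other macrophages. Pool 12, of CC001 and CC002 hosts, was the only pool without such a strain. Its 4 tumors had 0 UMIs in cluster 19 and 0.612 CPM in the other macrophages, so this contrast rests on 1 library. The strains of high level had 229 CPM in cluster 19 and 786 CPM in the other macrophages.

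Spon1, a secreted matrix protein also called F-spondin (chromosome 7, 113765998 to 114043370, plus strand, 277 kb), was higher in responder strains. In cluster 19 Spon1 ran from 12.8 through 160 to 675 CPM in responder and from 0 through 28.7 to 175 CPM in non-responder tumors (log2 fold change 2.19 ± 0.34, SE, adjusted p = 0.00013). The ranges overlapped, with the strain medians at 137 to 275 CPM in responder and 17.8 to 86.4 CPM in non-responder strains. Acod1, the enzyme that makes itaconate in activated macrophages, had medians of 134 and 46.5 CPM (1.95 ± 0.40, SE, adjusted p = 0.0070). For Acod1 the CC075 tumors were highest (median 352 CPM), and the unclassed B6 and CC007 had 183 and 244 CPM. Without CC075 the Acod1 difference was 1.12 and not called (adjusted p = 0.45), and without CC079 it was 1.90 (adjusted p = 0.079). Slamf7, a SLAM family receptor of phagocytes, had medians of 116 and 36.6 CPM (1.47 ± 0.33, SE, adjusted p = 0.022), Trim30d, a TRIM family gene, 136 and 67.8 CPM (0.94 ± 0.18, SE, adjusted p = 0.0048) and Cpq, a carboxypeptidase, 288 and 187 CPM (0.62 ± 0.12, SE, adjusted p = 0.0060). Slamf7 was not called without CC002 (adjusted p = 0.064), CC079 (0.30) or CC080 (0.069), and it did not pass the expression filter without CC075. Trim30d was not called without CC036 (adjusted p = 0.10) or CC075 (0.14), nor Cpq without CC002 (0.093), CC075 (0.097) or CC079 (0.17). Where tested without a strain, the log2 fold change was 1.17 to 2.05 for Slamf7, 0.80 to 1.13 for Trim30d and 0.50 to 0.76 for Cpq.

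Lower in responder strains were Fn1, Pde4d and Pabpc1. Fn1 (fibronectin), a matrix gene that was also on the monocyte list, ran from 380 through 835 to 1644 CPM in responder and from 486 through 1802 to 2881 CPM in non-responder tumors (log2 fold change -0.95 ± 0.19, SE, adjusted p = 0.0060). Fn1 was not called without CC002 (-0.93, adjusted p = 0.064) or CC079 (-0.94, adjusted p = 0.063). Pde4d, a cAMP phosphodiesterase of 1504 kb, had medians of 379 and 967 CPM (-1.34 ± 0.27, SE, adjusted p = 0.0060). For Pde4d the non-responder strain CC080 had a median of 373 CPM, inside the range of the responder strains (249 to 586 CPM), and the call was lost with pool as a block on the same genes (-1.04, adjusted p = 0.18). Pde4d was also not called without CC001 (adjusted p = 0.15), CC036 (0.12), CC075 (0.097) or CC079 (0.079). Pabpc1, which binds poly(A) tails, had medians of 267 and 389 CPM (-0.48 ± 0.11, SE, adjusted p = 0.036), and it was not called with the block on the same genes (-0.41, adjusted p = 0.23). Pabpc1 was called in only 5 of 19 alternatives, and not without doublet-called cells (adjusted p = 0.081), without cells with 2 or more markers of another type (0.058), in cells under 5000 UMIs (0.086) or without any 1 strain other than CC001. Leaving out each strain in turn gave 3 to 20 calls: 3 without CC075, 5 without CC079, 6 without CC002 and 20 without CC080. In pools 1 to 5 alone 2 genes were called, and in pools 8 to 12 alone 6. When counts were summed to 1 value per strain and treatment, 2 genes were called, Spon1 and Gm10260, and the other 7 had adjusted p-values of 0.39 to 0.50. Spon1 was called in 18 of 19 alternatives, with a highest adjusted p of 0.12, and Gm10260 in 18 of 18.

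**Figure D5:**
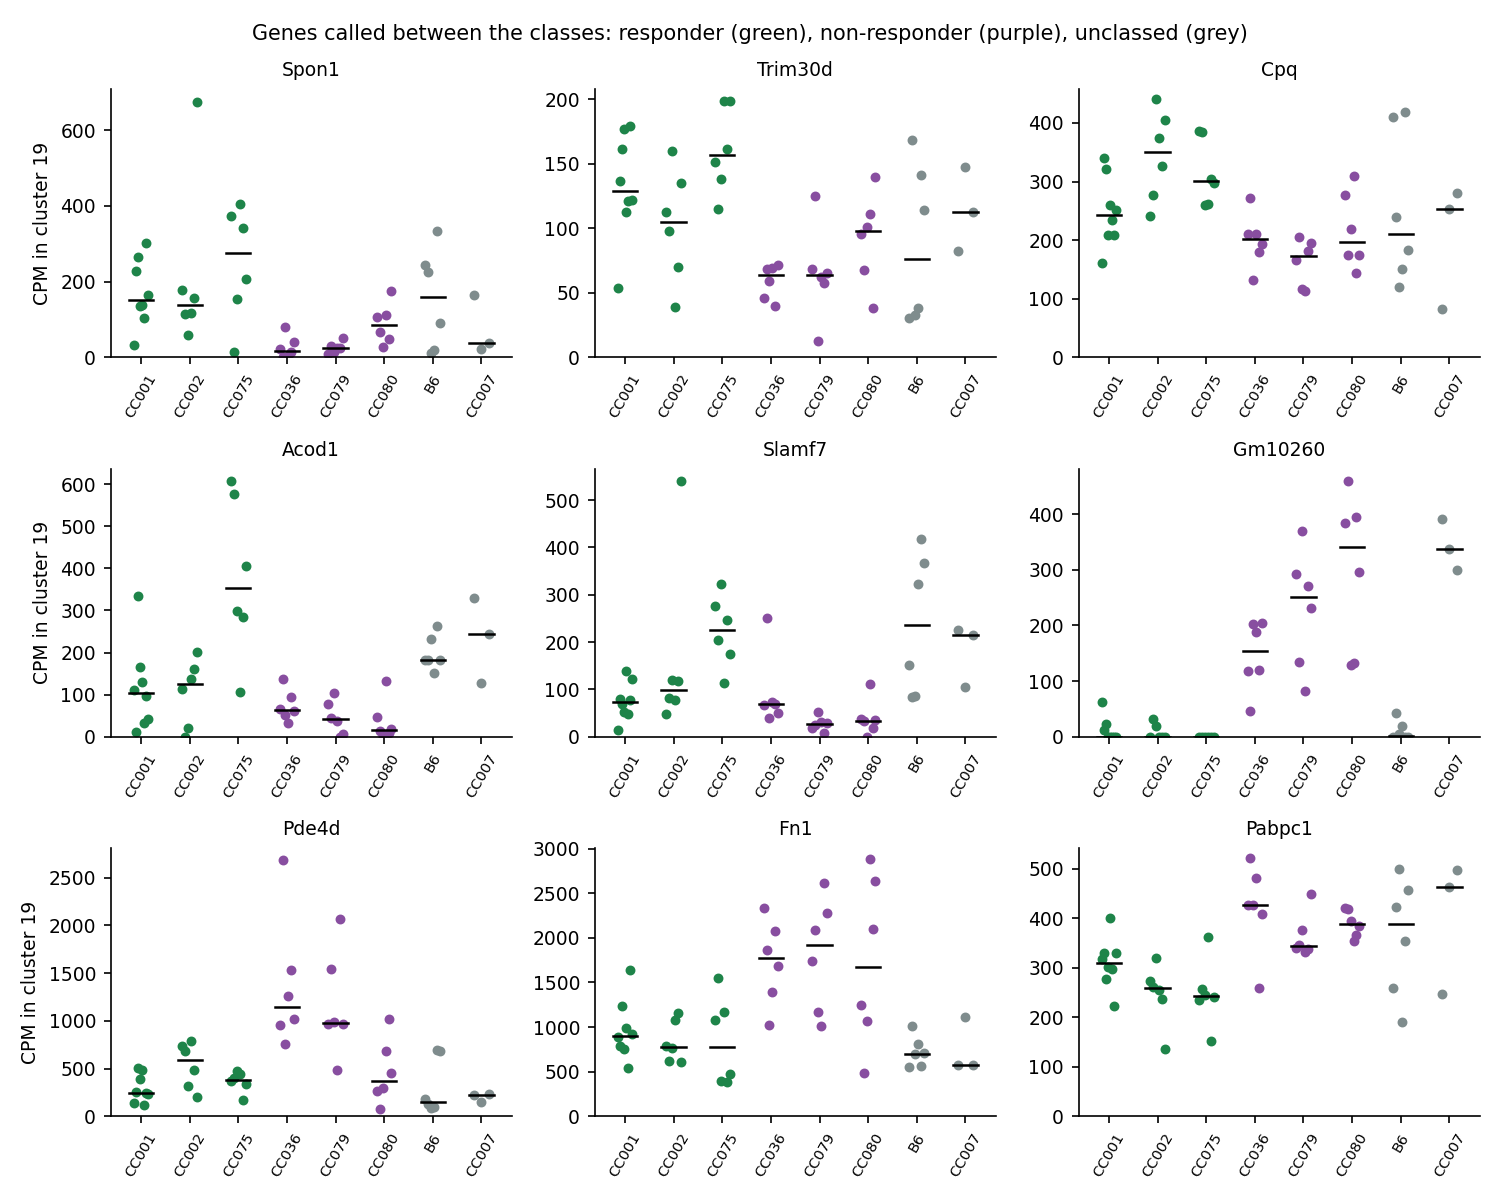
Level in cluster 19 (y, CPM) of the 9 genes called between classes, by host strain; each point is a tumor and the bar is the median of the strain, with responder strains in green, non-responder strains in purple and unclassed strains in grey. Gm10260 is at or near 0 in CC001, CC002, CC075 and B6, and Acod1 is highest in CC075 at a median of 352 CPM.

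The same comparison was made in the other macrophages of these tumors, at greater depth. There 751 of 11578 genes were called (6.49%). All 9 genes called in cluster 19 had the same sign in the other macrophages and 7 were called there, and the others were Acod1 (0.92 ± 0.30, SE, adjusted p = 0.056) and Pabpc1 (-0.02 ± 0.06, SE, adjusted p = 0.94). A test of the difference between cluster 19 and the other macrophages called 0 of 2819 genes (edgeR on paired sums, 97 at an unadjusted p under 0.05), Pabpc1 included (adjusted p = 0.89), and a p that misses the threshold does not show that the differences were alike. The median SE of a log2 fold change was 0.18 in cluster 19 and 0.079 in the other macrophages, so cluster 19 could show fewer differences. In simulated counts of this comparison, 46% of genes changed by 0.5 and 82% of genes changed by 1 on the log2 scale were found. Each simulation changed 50 genes at each of 0.5, 1, 1.5 and 2 together. Many changed genes ease the adjusted threshold, and recovery with only a few changed genes was not simulated. The simulated tumors were drawn independently from a common profile, so effects shared within a strain or pool were not simulated either. No MHC class II gene was called in cluster 19, where the median over the 7 tested was 0.21 (all genes 0.00), and H2-Eb1 came nearest at 0.90 (adjusted p = 0.062) and was called without the 74 cells of at least 5000 UMIs (1.00, adjusted p = 0.0031). All 7 were called higher in responder strains in the other macrophages, with a median of 0.59. None of the 10 tested interferon-gamma response genes was called in cluster 19 (median 0.62), and 4 were called higher in the other macrophages (median 0.49). The leading genes of cluster 19 had medians near 0 in this comparison (-0.02 for the 25 higher and 0.16 for 13 tested of the 15 lower), and of 792 tested genes of at least 100 kb 3 were called.

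After aPD1 no gene was called in cluster 19. The count was 0 of 2828 genes in responder strains (0%, 94 at an unadjusted p under 0.05), 0 of 3356 in non-responder strains (0%, 83), 0 of 3628 for the difference of the aPD1 effects between classes (0%, 130) and 0 of 4088 over all hosts (0%, 112), and DESeq2 also called 0 in each. The other macrophages of the same tumors, at greater depth, gave 1 of 11754, 0 of 11814, 0 of 12223 and 0 of 12646 genes in the same order of comparisons. The interferon-gamma response list is given by its fitted values. In responder strains 12 of 12 tested genes had a fitted log2 fold change above 0 (median 0.55), against 52.1% of all genes (median 0.01). In non-responder strains it was 0 of 10 (median -0.72) against 50.7%, and for the difference between classes 15 of 15 (median 1.03) against 52.4%, none of them past the test. The same interferon-gamma genes in the other macrophages had medians of 0.61, -0.21 and 0.86, where the part of the cluster mix was not tested. Other lists were as one-sided in each comparison. In responder strains 0 of 12 mitochondrial transcripts and 0 of 8 endoplasmic reticulum stress genes were above 0. In non-responder strains 11 of 11 lipid-associated macrophage and 9 of 9 complement genes were, and for the difference between classes 10 of 10 MHC class I genes and 0 of 12 mitochondrial transcripts. The mitochondrial share of cluster 19 in the median tumor of responder strains was 6.06% with isotype and 4.23% with aPD1, and its part in these values was not tested. The lowest p in the all-hosts comparison belonged to Nos2, the inducible nitric oxide synthase, at 2.17 ± 0.52 (SE, adjusted p = 0.52). Nos2 was near the floor in cluster 19, with 0 UMIs in 6 of 20 responder and 8 of 18 non-responder tumors. Its isotype and aPD1 medians were 7.61 and 61.0 CPM in responder, 0 and 18.3 CPM in non-responder and 0 and 56.7 CPM in unclassed strains. In the comparison between classes the lowest p belonged to H2-Q7, an MHC class I gene, at 1.47 ± 0.35 (SE, adjusted p = 0.54). In simulated counts of the responder comparison, 66% of genes changed by 1 on the log2 scale were found, and 30% for the difference between classes. As in the class comparison, many genes were changed together, and recovery with only a few changed genes was not simulated. Effects shared within a strain or pool were again left out.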

How the data were processed

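Single-cell RNA-seq was made by the authors from sorted MC38 tumors. Per the study's methods, the authors counted reads with Cell Ranger on GRCm38 with GENCODE annotation, removed cells over 15% mitochondrial or 45% ribosomal UMIs and clustered cells with Seurat 5.0.1. The deposited table holds raw UMI counts for 27457 genes, with cluster, strain, treatment and hashtag of each cell; 0 columns of per-sample values were left unused. A tumor was a pool, strain and treatment. The members, gene lists and tests were chosen with earlier results of these data known.

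Here counts were summed per tumor and cluster with Python 3.11.15 (numpy 2.4.6, scipy 1.17.1, pandas 2.3.3, scikit-learn 1.9.0). Ratios were log2 of CPM + 10 in tumors with at least 10 cluster 19 cells. Doublet scores came from simulated doublets in each pool. Cells above the score that marks the highest 4% were called, which was 3.33 to 3.93% of a pool. This threshold was chosen after the automatic one marked 28 cells (0.0301%). Leading genes were the 25 of highest and 15 of lowest mean ratio at 50 CPM or more. Gene spans came from GENCODE vM21, of the same build. Shares used tumors with at least 50 macrophage cells and permutation tests, with Benjamini-Hochberg adjustment. Genes were tested with edgeR 4.0.16 (TMM, filterByExpr, limma 3.58.1) in R 4.3.3 at an adjusted p under 0.05, class fits with treatment and aPD1 fits with strain as covariate, and with DESeq2 1.42.0 as an alternative; the self-test used simulated counts. All called genes are named. Some gene lists are not reported here. Tumors of a pool shared a library. Pool was a block only in the alternatives so named, and the main gene fits and share tests were not blocked by pool. Only the change per pair of tumors was taken within a pool. Tumors are single specimens, and p-values measure the spread between them. Where response classes are compared, 3 strains stand for each class.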

Additional observations from a re-analysis of the deposited data

Results flagged for a closer look

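The share of cluster 19 in the CC002 isotype tumor of pool 12 was 8.80%, far above the next responder isotype tumor at 5.95% and the next CC002 tumor at 4.30%. It rests on 11 of 125 macrophage cells, and this tumor had 248 cells in all.

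Single tumors also stood far above the rest of their group in the level of called genes. Gm10260 was at 62.8 CPM in the CC001 aPD1 tumor of pool 1 (next 23.02 CPM) and at 32.6 CPM in the CC002 isotype tumor of pool 3 (next 11.4 CPM), both in libraries shared with non-responder strains of high level. Slamf7 was at 249.8 CPM in the CC036 isotype tumor of pool 8 (next 111 CPM) and at 540 CPM in the CC002 isotype tumor of pool 12 (next 205 CPM). With 47 groups examined, chance alone flags about 1 group in 20.

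In pairs of tumors the change of the share after aPD1 had opposite signs in some strains. It was positive in all 3 pairs of CC075 tumors (0.0229, 0.160 and 1.28 percentage points) and negative in all 3 pairs of CC002 (-0.763, -0.939 and -4.50) and of CC079 (-1.17, -1.64 and -2.78). The value of -4.50 holds the CC002 isotype tumor of pool 12 with its 11 cluster 19 cells. The means were 0.487, -2.07 and -1.86. The CC075 change of 0.0229 rests on 42 of 955 macrophage cells with aPD1 and 49 of 1120 with isotype. These strains were picked because all 3 of their pairs had the same sign, which can arise by chance. The difference between these strains was not tested.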

How the results depend on the processing

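None of the 6 differences in share had a p under 0.05 under any alternative, and direction was not stable where they were small. The aPD1 difference in non-responder strains was 0.442 points as a share of all cells, 0.204 in cells of at least 1000 UMIs, 0.133 in pools 8 to 12, 0.00204 on the log2 scale and 0.0866 for cells with a long-gene share of at least 20%. The difference between classes was 0.0316 without the tumors of the shared animal identifier and 0.422 on ranks. Over all hosts aPD1 gave 0.0751 as a share of all cells, 0.0693 in cells of at least 1000 UMIs and 0.162 in pools 8 to 12.

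Leaving out a strain or the CC002 isotype tumor of pool 12 gave -1.48 to 0.453 points for the classes in isotype tumors and -1.33 to 0.0905 in aPD1 tumors. Without CC036, CC075 or CC079 the isotype difference was 0.453, 0.0534 or 0.203. It gave -1.19 to -0.101 for aPD1 in responder strains, -0.837 to 0.697 in non-responder strains, -1.39 to 0.147 for the difference between classes and -0.501 to -0.0289 over all hosts. The F over strains was 1.77 to 5.86, lowest without CC036, and 3.07 in pools 1 to 5.

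Of the class comparison's 9 genes, the count became 19 with DESeq2, 31 with no filter, 17 with pool as a block (replicate block) and 10 with the block on the same genes, 2 in pools 1 to 5, 14 in cells under 5000 UMIs, 2 when summed per strain and treatment and 3 to 20 without a strain. With no filter Cpq (adjusted p = 0.13), Acod1 (0.052), Slamf7 (0.077) and Pabpc1 (0.15) were not among the 31. The aPD1 counts of 0 became 6, 2 and 2 with no filter in responder strains, non-responder strains and their difference, and stayed at 0 without each strain. The median of the 25 higher leading genes was 2.00 at a pseudocount of 50 CPM and 1.73 in cells of 1000 to 1500 UMIs, and that of the 15 lower was -2.64 after thinning. The alternatives of the block on the same genes, of cells under 5000 UMIs, of a long-gene share, of the strain comparison and of 1000 to 1500 UMIs were chosen after seeing the data. The cause of these shifts was not tested.

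Depth limits cluster 19 to 14822 to 242216 UMIs a tumor, and 3 strains stand for each class.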

Other observations

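Other macrophage gene groups in cluster 19 are given here against the other 9 macrophage clusters, as levels without a test. In the apoptosis and p53 list, Bcl2l11, which encodes the death factor BIM, stood at 211 against 72.1 CPM and Mdm2, which marks p53 for degradation, at 178 against 75.2 CPM, whereas Bax stood at 92.5 against 244 CPM. Of 15 expressed hypoxia and glycolysis genes 9 were lower and 6 higher (median log2 ratio -0.95). Gapdh was at 859 against 2218 CPM and Ldha at 329 against 713 CPM, each lower in all 47 tumors, and the growth factor Vegfa was at 229 against 142 CPM. Without the cells of at least 5000 UMIs Gapdh was at 481 CPM. Of 16 expressed lysosome genes 15 were lower, and Lamp2, a lysosomal membrane protein of 55.1 kb, was at 525.7 against 272 CPM. Of 11 expressed MHC class I genes 10 were lower and 1 higher (median -0.95), with B2m at 1333 against 3237 CPM. The higher gene was their transactivator Nlrc5 (92.9 kb), at 189 against 62.8 CPM and higher in all 47 tumors. Arg1, the arginase of tumor macrophages, was at 283 against 718 CPM and lower in all 47 tumors.

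The 74 cluster 19 cells of at least 5000 UMIs differed from other macrophages of 10000 to 25000 UMIs in genes chosen after their values were seen. Pclaf, a PCNA-binding factor, was at 465.6 against 196 CPM and Mgl2, a lectin of dendritic cells and macrophages, at 136 against 54.2 CPM. Ctsk had 0 UMIs in them against 74.9 CPM, Hmox1 stood at 36.5 against 172 CPM and Pf4 at 189 against 582 CPM.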
